A study of Arabidopsis thaliana with 12 samples.

Results

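The WRKY transcription factor family was followed in the rosette transcriptome of Arabidopsis under ozone (O3). Members were taken from the gene table by locus, with a list of WRKY loci as the rule, and all 55 listed loci were found among the 34212 loci of the table. All 55 also had a count in at least 1 library, so that all of them were among the 28549 genes tested. The groups compared were Cvi-0 (Cvi) in O3, Cvi in clean air (CA), Shahdara (Sha) in O3 and Sha in CA. Sha and Cvi are natural accessions that the study treats as O3-sensitive. Plants aged 3 weeks received 350 nL L-1 O3 or CA for 2 h, whole rosettes were harvested, and each group had 3 replicate libraries, each made from a pool of 4 rosettes. No mutant or transgene was involved, and the accessions differ at many loci at the same time. The paper describes Cvi as having open stomata and a raised O3 uptake. Over a longer exposure it measured a lower total O3 dose in Sha than in the tolerant accession Col-0, after equal doses at first. The dose inside the leaf can therefore differ at the same O3 in the air, and dose and accession cannot be told apart here. A whole rosette holds every leaf cell type, so fewer cells of a type and less RNA per cell cannot be told apart.

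WRKY proteins are plant transcription factors named after a short conserved peptide in their DNA-binding domain, which is followed by a zinc finger. Most of them bind the W-box, a short DNA element with the core TTGAC, and many take part in defence, senescence and stress responses, often switching each other on or off. Group I members carry a pair of WRKY domains, group II members a single domain (subgroups IIa to IIe), and group III members a single domain with a different zinc finger. In leaves, several of them work downstream of mitogen-activated protein (MAP) kinases and together with VQ proteins, which are small partner proteins.

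By that grouping the family held 10 members of group I, 3 of IIa, 8 of IIb, 10 of IIc, 7 of IId, 7 of IIe and 10 of group III. Every group I member had 2 WRKY motifs and each of the other 45 members had 1 in the coding sequence annotated by RefSeq, and the group III type of zinc finger was found in the 10 group III members and in no other member. A total of 72 RefSeq genes hold the motif, so the list does not cover every such gene.

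Total counts ranged from 10794686 to 33571955 per library, and the Cvi libraries were deeper on average. A level of 3 counts in a library, taken here as the floor, was worth between 0.0894 and 0.278 CPM (counts scaled to library size) by total counts. All other CPM here use library sizes adjusted by TMM, a factor of 0.879 to 1.25 per library, so this range is approximate for them. The floor covers counting error only. Of the marker genes of leaf mesophyll, all 5 were lower in O3 in both accessions, and of 4 guard cell markers 2 were lower in Cvi, 1 was lower in Sha and none was higher. Flower markers summed to 0.844 to 0.940 CPM in Cvi in O3 and 0.408 to 0.967 CPM in Cvi in CA. In Sha they summed to 3.70 to 6.09 CPM in O3 and 7.35 to 13.5 CPM in CA. In CA 3 of these 4 markers were called lower in Cvi than in Sha (9.28% of all genes). Root markers summed to at most 3.498 CPM in any library, and seed markers to at most 0.0941 CPM. The part of these shifts in the results was not tested. Replicate 2 of Sha stood apart for some members. In O3 it held less than 50% of the level of both other Sha libraries for WRKY8, WRKY28, WRKY31, WRKY42, WRKY45, WRKY62 and WRKY75. In CA the same was seen in Sha replicate 2 for 7 members, of which WRKY31, WRKY45, WRKY62 and WRKY75 were shared with O3. In 11 members, exons overlap those of a locus on the opposite strand, by 26 to 491 bp, most in WRKY41 and WRKY53. The library kit marks strand, but the use of strand in counting is not given in the sources used here, so for these members the reads of the partner cannot be set apart with certainty. WRKY40 shares 175 bp at 96.0% identity with AT3G32090, and WRKY63 aligns to AT1G66550 over 80.3% of its length at 79.2% identity, so some of their reads could have been shared with these copies.

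Promoter sequences are shown because WRKY proteins bind W-boxes, also in the genes of other family members, and because most members rose together in O3. The 250 bases before the annotated start are given 5′ to 3′ on the strand of the gene, from the RefSeq annotation of TAIR10.1, which is a Col-0 genome, so the Sha and Cvi sequences can differ. Capitals mark W-boxes, searched as TTGACC and TTGACT on both strands (GGTCAA and AGTCAA where the box lies on the other strand). Both spellings share their core, so each position counts once. The set holds the member with most boxes within the printed bases (WRKY30) and members with 2 boxes and a large or strongly expressed response (WRKY33, WRKY53, WRKY41 and WRKY15). It also holds a pair with neither spelling although their transcripts rose among the most (WRKY46 and WRKY40). Both of these do hold the core TTGAC on the other strand (gtcaa), followed by A, which was not searched. WRKY30 lies at chr5:8154711-8154960 on the minus strand, WRKY33 at chr2:16107985-16108234 on the plus strand, WRKY53 at chr4:12393983-12394232 on the minus strand, WRKY41 at chr4:6758848-6759097 on the plus strand, WRKY15 at chr2:9924636-9924885 on the plus strand, WRKY46 at chr2:19044956-19045205 on the minus strand and WRKY40 at chr1:30383311-30383560 on the plus strand.
WRKY30: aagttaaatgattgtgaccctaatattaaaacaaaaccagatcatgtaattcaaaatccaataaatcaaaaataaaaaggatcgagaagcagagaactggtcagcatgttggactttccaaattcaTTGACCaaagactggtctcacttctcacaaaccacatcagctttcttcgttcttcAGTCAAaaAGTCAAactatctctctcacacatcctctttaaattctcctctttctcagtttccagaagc
WRKY33: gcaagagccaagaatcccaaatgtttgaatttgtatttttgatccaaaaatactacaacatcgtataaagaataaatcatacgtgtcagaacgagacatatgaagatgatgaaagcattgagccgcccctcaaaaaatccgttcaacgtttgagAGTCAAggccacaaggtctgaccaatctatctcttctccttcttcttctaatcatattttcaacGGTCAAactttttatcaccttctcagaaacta
WRKY53: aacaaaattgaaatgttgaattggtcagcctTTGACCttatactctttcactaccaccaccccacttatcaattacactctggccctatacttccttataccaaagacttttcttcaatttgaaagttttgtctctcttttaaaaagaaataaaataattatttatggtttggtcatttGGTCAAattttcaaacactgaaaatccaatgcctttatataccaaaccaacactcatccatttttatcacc
WRKY41: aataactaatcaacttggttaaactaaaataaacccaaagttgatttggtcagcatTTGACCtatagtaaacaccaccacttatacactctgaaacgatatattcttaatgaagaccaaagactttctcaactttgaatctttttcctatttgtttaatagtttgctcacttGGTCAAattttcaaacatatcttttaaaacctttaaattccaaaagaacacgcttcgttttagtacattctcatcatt
WRKY15: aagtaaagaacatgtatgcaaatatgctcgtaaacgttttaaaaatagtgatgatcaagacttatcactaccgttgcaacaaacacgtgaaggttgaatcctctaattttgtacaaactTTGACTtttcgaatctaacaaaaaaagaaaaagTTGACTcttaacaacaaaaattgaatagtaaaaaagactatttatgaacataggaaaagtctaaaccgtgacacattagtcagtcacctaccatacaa
WRKY46: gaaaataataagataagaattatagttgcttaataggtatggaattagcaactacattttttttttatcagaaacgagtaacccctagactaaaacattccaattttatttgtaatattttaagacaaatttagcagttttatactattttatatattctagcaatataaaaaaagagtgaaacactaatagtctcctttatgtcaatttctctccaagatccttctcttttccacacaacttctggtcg
WRKY40: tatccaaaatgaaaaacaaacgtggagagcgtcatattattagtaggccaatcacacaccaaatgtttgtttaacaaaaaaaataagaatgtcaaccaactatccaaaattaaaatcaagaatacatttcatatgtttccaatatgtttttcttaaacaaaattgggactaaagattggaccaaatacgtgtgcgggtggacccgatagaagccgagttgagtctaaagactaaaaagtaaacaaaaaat
The 3 boxes of WRKY30 begin 124, 69 and 61 bases before the start, and the last pair begins 8 bases apart. In WRKY33 the boxes begin 96 and 32 bases before the start, in WRKY15 131 and 98 bases before it. WRKY53 and WRKY41, closely related group III members, share a run of 19 bases that includes a box, the longest run shared by any of the 1485 pairs of member promoters (median 9 bases).

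Over a window of 250 bases before to 50 bases after the start, 21 of 55 members (38.2%) held at least 1 W-box, against 32.4% of the promoters of 27357 protein-coding genes. At least 2 boxes were found in 11 members (20%), against 7.7% of all promoters. Within 1000 bases before the start, 45 members (81.8%) had a box, against 67.3% of all genes. WRKY46 then had 1 box and WRKY40 had 2. Of the 34 members higher in O3 in both accessions, 17 had a box in the short window and 32 in the long one. Of the other 21 members, 4 had a box in the short window and 13 in the long one. These matches describe letters in a window and not binding.

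The first question was how the family responded to O3 in each accession. In Cvi O3 raised 36 members and lowered 5 (41 in all), and in Sha it raised 37 and lowered 1 (38 in all). A call means a false discovery rate of at most 0.05 against a change of 1.2-fold (edgeR, likelihood-ratio test, Benjamini-Hochberg over all genes tested). In Cvi 24.3% of all genes were higher and 23.2% lower, or 47.5% in either direction, and in Sha 17.9% were higher and 16.6% lower, or 34.5%. The median log2 fold change of the members was 2.21 in Cvi and 1.63 in Sha, against 0 over all genes in both. Of the 55 members, 34 were higher in both accessions (15.2% of all genes), 2 only in the calls of Cvi, 3 only in those of Sha, and 11 were called in neither. No member was called in opposite directions (0.224% of all genes). Against a log2 fold change of 1.2 in place of a 1.2-fold change, 30 members were higher in Cvi (13.2% of all genes) and 26 in Sha (7.27%), and 0 were lower in Cvi (5.43%) and in Sha (3.08%).

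Levels in O3 and CA did not overlap, with O3 higher, for 39 members in Cvi (28.4% of all genes) and for 40 in Sha (21.6%). With O3 lower, they did not overlap for 8 members in Cvi (31.0%) and 2 in Sha (21.2%). The log2 response in Cvi followed that in Sha across the 55 members with Pearson's r = 0.889 and Spearman's rho = 0.917, against 0.637 and 0.626 over all genes. These are descriptions across genes, which share the same libraries and are not independent replicates.

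Summed over the family, the transcript level was 5288, 5298 and 5455 CPM in Cvi in O3, against 386.0, 517.6 and 507.6 CPM in Cvi in CA. In Sha the sum was 4379, 3689 and 4745 CPM in O3, against 488.6, 544.7 and 527.5 CPM in CA. The means stood in a ratio of 11.4 in Cvi and 8.21 in Sha. Of the unscaled counts, the family took 0.465 to 0.496% in Cvi in O3 and 0.0367 to 0.0490% in Cvi in CA. In Sha it took 0.461 to 0.5001% in O3 and 0.0499 to 0.0571% in CA. In these shares the O3 libraries of the accessions overlapped, while the sums in O3 were higher in every Cvi library. The sums carry the TMM factors, 0.879 to 0.930 in Cvi in O3 and 1.05 to 1.25 in Sha in O3. Group III made up 30.8 to 37.5% of the sum in Cvi in O3 and 18.1 to 33.96% in Cvi in CA. In Sha it made up 35.9 to 41.0% in O3 and 16.2 to 18.9% in CA.

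**Figure D1:**
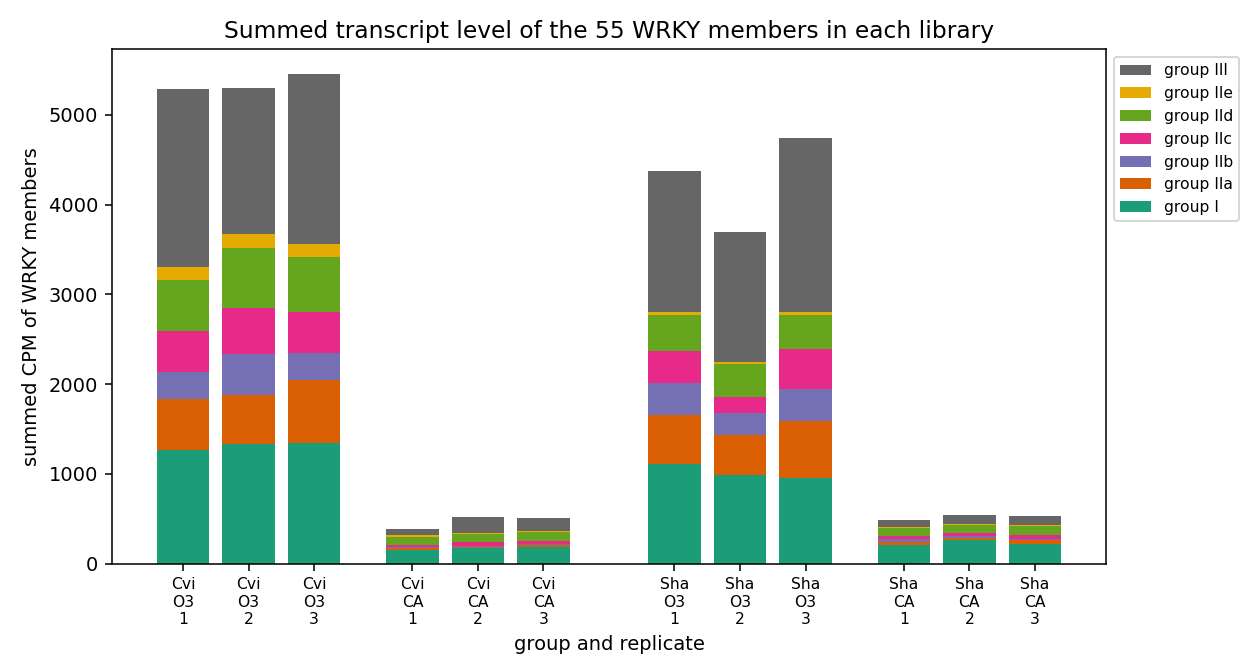
Summed CPM of the 55 WRKY members in each library (y axis, linear from 0) by accession, treatment and replicate (x axis), with each bar split by WRKY group. The O3 libraries reach 5288 to 5455 CPM in Cvi and 3689 to 4745 CPM in Sha, against 386.0 to 517.6 and 488.6 to 544.7 CPM in CA. CPM use TMM-adjusted library sizes.

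Per kilobase of transcript, the members with most transcript in Cvi in O3 were WRKY46 at 736 CPM per kb, WRKY33 at 458, WRKY40 at 394 and WRKY70 at 242. In Cvi in CA the order was WRKY70 at 50.1 CPM per kb, WRKY54 at 29.2 and WRKY1 at 15.6. In Sha in O3 WRKY46 stood at 378 CPM per kb, WRKY70 at 359, WRKY33 at 315 and WRKY40 at 284, and the libraries of neighbours in this order overlapped. In Cvi in O3 WRKY46 lay above WRKY33 in every library, while WRKY33 and WRKY40 overlapped. In Sha in CA WRKY70 led at 41.1 CPM per kb, before WRKY1 at 20.8 and WRKY3 at 18.8.

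All 10 members of group III were higher in O3 in both accessions (15.2% of all genes). The median log2 fold change of the group was 5.70 in Cvi and 5.02 in Sha. This group includes regulators of salicylic acid signalling and leaf senescence. WRKY46 (AT2G46400), a regulator of basal defence and stomatal behaviour, had 1036, 979.6 and 973 CPM in Cvi in O3, against 5.55, 7.11 and 6.23 CPM in Cvi in CA. It had 498, 436 and 604 CPM in Sha in O3, against 7.34, 12.9 and 7.76 CPM in Sha in CA. The log2 fold change (± SE) was 7.31 ± 0.23 (adjusted p = 1.45e-129) in Cvi and 5.78 ± 0.23 (adjusted p = 3.37e-90) in Sha, and all O3 libraries stood far above all CA libraries.

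WRKY70 (AT3G56400), a regulator of salicylic acid and jasmonic acid signalling, was the member with most counts in CA. Its levels were 423, 209 and 437 CPM in Cvi in O3, against 36.5, 105 and 79.5 CPM in Cvi in CA. In Sha they were 464, 315 and 804 CPM in O3, against 49.1, 68.7 and 63.6 CPM in CA. The change was 2.28 ± 0.41 (adjusted p = 1.61e-06) in Cvi and 3.12 ± 0.41 (adjusted p = 1.11e-10) in Sha, and the spread between replicates was wide, with Cvi in O3 replicate 2 and Sha in O3 replicate 2 the lowest of their groups. WRKY54 (AT2G40750), its close relative, which acts with it in senescence, had 130.0, 61.97 and 154 CPM in Cvi in O3, against 21.99, 57.03 and 46.4 CPM in Cvi in CA. The Sha libraries had 122, 110.4 and 218 CPM in O3, against 11.4, 14.5 and 12.5 CPM in CA. It changed by 1.46 ± 0.38 (adjusted p = 0.00121) in Cvi and 3.55 ± 0.39 (adjusted p = 8.46e-15) in Sha, and the lowest O3 library of Cvi lay only just above its highest CA library.

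WRKY30 (AT5G24110), linked to oxidative stress tolerance, was close to absent in CA. It was measured at 93.4, 105 and 87.2 CPM in Cvi in O3, against 1.16, 1.35 and 1.74 CPM in Cvi in CA. The Sha libraries gave 100.2, 60.9 and 40.8 CPM in O3, against 0.453, 0.581 and 0.7901 CPM in CA. Its response was 6.07 ± 0.31 (adjusted p = 1.01e-57) in Cvi and 6.69 ± 0.38 (adjusted p = 7.04e-59) in Sha, and the groups did not overlap. In Sha it stood with WRKY40 at the top of the family, within 1 SE of it, and the replicate block turned their order (6.63 for WRKY30 and 6.66 for WRKY40). WRKY53 (AT4G23810), a regulator of leaf senescence, had 146, 104 and 100 CPM in Cvi in O3, against 3.105, 4.02 and 5.18 CPM in Cvi in CA. In Sha it reached 305, 453 and 207 CPM in O3, against 7.07, 4.797 and 7.93 CPM in CA. Its change was 4.83 ± 0.31 (adjusted p = 2.67e-39) in Cvi and 5.60 ± 0.31 (adjusted p = 5.77e-49) in Sha, and its level in O3 was higher in every Sha library than in every Cvi library.

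WRKY41 (AT4G11070), the closest relative of WRKY53, had 8.79, 8.97 and 5.88 CPM in Cvi in O3, against 0.251, 0.0773 and 0.0871 CPM in Cvi in CA. It had 11.6, 11.7 and 4.34 CPM in Sha in O3, against 0.272, 0.145 and 0.412 CPM in Sha in CA. The change of 5.70 ± 0.58 (adjusted p = 1.30e-23) in Cvi and 4.91 ± 0.54 (adjusted p = 1.79e-18) in Sha started from a far lower level than that of WRKY53, and its groups did not overlap either. WRKY55 (AT2G40740), a positive regulator of senescence next to WRKY54 on chromosome 2, had 114, 115 and 95.7 CPM in Cvi in O3, against 0.4705, 1.005 and 0.392 CPM in Cvi in CA. For Sha the levels were 27.3, 22.6 and 16.3 CPM in O3, against 0.272, 0.145 and 0.378 CPM in CA. Its log2 fold change was 7.43 ± 0.31 (adjusted p = 1.75e-104) in Cvi and 6.22 ± 0.44 (adjusted p = 1.30e-58) in Sha, and in O3 all Cvi libraries were above all Sha libraries.

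WRKY38 (AT5G22570) and WRKY62 (AT5G01900) are negative regulators of basal defence. WRKY38 had 0.546, 1.19 and 1.43 CPM in Cvi in O3, against 0.2196, 0.0387 and 0.174 CPM in Cvi in CA. Its Sha levels were 12.1, 8.805 and 14.1 CPM in O3, against 1.54, 0.727 and 1.99 CPM in CA. The response was 2.81 ± 0.57 (adjusted p = 1.15e-06) in Cvi and 3.00 ± 0.39 (adjusted p = 2.06e-11) in Sha, with a difference of -0.19 ± 0.69 that was not called, but the levels in Cvi lay near the floor in CA and below those of Sha in both treatments. WRKY62 had 17.8, 32.6 and 28.9 CPM in Cvi in O3, against 0.627, 0.193 and 0.697 CPM in Cvi in CA. Its Sha levels were 16.01, 2.77 and 21.9 CPM in O3, against 1.27, 0.0727 and 1.48 CPM in CA. It changed by 5.69 ± 0.73 (adjusted p = 4.17e-10) in Cvi and 3.82 ± 0.73 (adjusted p = 1.32e-05) in Sha, with Sha replicate 2 far below the other Sha libraries in both treatments. WRKY63 (AT1G66600), known from abscisic acid responses, had 13.9, 11.7 and 12.01 CPM in Cvi in O3, against 0.157, 0.116 and 0.348 CPM in Cvi in CA and 14.9, 20.8 and 15.1 CPM in Sha in O3, against 0.0907, 0.436 and 0.687 CPM in Sha in CA. It changed by 5.93 ± 0.42 (adjusted p = 8.18e-63) in Cvi and 5.12 ± 0.36 (adjusted p = 3.85e-52) in Sha, without overlap of the groups.

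Group I held calls in both directions. Of its 10 members, 4 were higher (24.3% of all genes) and 2 lower (23.2%) in Cvi. In Sha 5 were higher (17.9%) and 1 lower (16.6%). The lower calls were thus not above the share over all genes. WRKY33 (AT2G38470), which controls camalexin synthesis and resistance to necrotrophs, had 881, 944 and 962 CPM in Cvi in O3, against 10.5, 18.6 and 24.5 CPM in Cvi in CA. Its Sha levels were 748, 608 and 561 CPM in O3, against 28.4, 32.6 and 29.2 CPM in CA. It rose by 5.70 ± 0.26 (adjusted p = 4.60e-69) in Cvi and 4.41 ± 0.26 (adjusted p = 1.58e-45) in Sha, and in O3 all Cvi libraries lay above all Sha libraries, a contrast that was not called (0.54 ± 0.25, adjusted p = 0.142). WRKY25 (AT2G30250), a relative of WRKY33 with a role in heat tolerance, had 244, 251 and 239.6 CPM in Cvi in O3, against 6.93, 11.8 and 12.9 CPM in Cvi in CA. In Sha the values were 171, 176 and 195 CPM in O3, against 9.61, 14.6 and 14.3 CPM in CA. Its change was 4.54 ± 0.23 (adjusted p = 1.98e-62) in Cvi and 3.81 ± 0.23 (adjusted p = 2.41e-45) in Sha. WRKY26, the remaining member of that trio, changed by 2.20 ± 0.25 (adjusted p = 4.68e-14) in Cvi and 1.50 ± 0.26 (adjusted p = 1.20e-06) in Sha.

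WRKY3 (AT2G03340), which supports resistance to necrotrophs, was the only member lower in both accessions (14.1% of all genes). It had 8.59, 9.51 and 7.8 CPM in Cvi in O3, against 15.7, 19.5 and 22.5 CPM in Cvi in CA. The levels in Sha were 25.5, 21.1 and 22.9 CPM in O3, against 40.4, 43.7 and 40.3 CPM in CA. The change was -1.15 ± 0.17 (adjusted p = 8.20e-08) in Cvi and -0.84 ± 0.17 (adjusted p = 0.000224) in Sha. Its close relative WRKY4 was higher in both accessions, by 0.86 ± 0.16 (adjusted p = 4.08e-05) in Cvi and 1.01 ± 0.16 (adjusted p = 1.77e-06) in Sha. WRKY20 (AT4G26640) was called lower in Cvi only. Its levels were 21.1, 20.4 and 20.02 CPM in Cvi in O3, against 35.8, 36.8 and 36.9 CPM in Cvi in CA, with no overlap, and 30.9, 37.1 and 29.1 CPM in Sha in O3, against 38.7, 49.4 and 35 CPM in Sha in CA, where the groups overlapped. The change was -0.83 ± 0.16 (adjusted p = 0.000140) in Cvi and -0.34 ± 0.16 (adjusted p = 0.277) in Sha, and the difference between these responses was not called (-0.49 ± 0.23, adjusted p = 0.308). WRKY2 was called only in Sha (0.66 ± 0.17, adjusted p = 0.00754), and that call was lost without Sha in CA replicate 1 (adjusted p = 0.0518). In Cvi its adjusted p was 0.0745, and 0.0438 without Sha in CA replicate 2. WRKY32, not called in either accession, had an adjusted p of 0.0932 in Cvi, and 0.0406 without Sha in O3 replicate 2.

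The 3 members of group IIa, WRKY18, WRKY40 and WRKY60, bind each other and act together in defence and abscisic acid signalling, but they did not move together. WRKY40 (AT1G80840) had 494, 474 and 599.5 CPM in Cvi in O3, against 1.66, 1.43 and 2.31 CPM in Cvi in CA. Sha libraries showed 384, 334 and 410.4 CPM in O3, against 4.35, 2.47 and 4.47 CPM in CA. Its log2 fold change was 8.19 ± 0.25 (adjusted p = 7.35e-152) in Cvi and 6.63 ± 0.24 (adjusted p = 8.73e-112) in Sha. WRKY18 (AT4G31800) had 71.6, 75 and 103 CPM in Cvi in O3, against 9.13, 9.67 and 15.6 CPM in Cvi in CA, and 148, 96.7 and 222 CPM in Sha in O3, against 22.6, 13.8 and 24.1 CPM in Sha in CA. Its response was 2.86 ± 0.32 (adjusted p = 9.88e-15) in Cvi and 2.95 ± 0.32 (adjusted p = 3.15e-15) in Sha, with a difference of -0.09 ± 0.45 that was not called. WRKY60 (AT2G25000) had 3.58, 2.23 and 2.96 CPM in Cvi in O3, against 6.74, 6.61 and 7.101 CPM in Cvi in CA. The corresponding Sha levels were 12.9, 16.2 and 8.03 CPM in O3, against 10.2, 13.4 and 10.5 CPM in CA. It was lower in O3 in Cvi (-1.22 ± 0.27, adjusted p = 0.000123) and not called in Sha (0.12 ± 0.25, adjusted p = 0.857), where O3 and CA overlapped.

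In group IIb 5 of 8 members were higher in each accession, 4 of them in both. Over all genes, 24.3% were higher in Cvi, 17.9% in Sha and 15.2% in both. WRKY6 (AT1G62300), a regulator of senescence and phosphate transport, had 285, 426 and 284 CPM in Cvi in O3, against 4.96, 4.099 and 5.97 CPM in Cvi in CA. The Sha libraries had 328, 210.2 and 317 CPM in O3, against 11.2, 7.85 and 9.14 CPM in CA. It rose by 6.05 ± 0.25 (adjusted p = 4.05e-82) in Cvi and 4.92 ± 0.25 (adjusted p = 5.72e-59) in Sha. WRKY72 (AT5G15130), a contributor to basal immunity, had 2.13, 3.86 and 2.09 CPM in Cvi in O3, against 0.0314, 0.0387 and 0 CPM in Cvi in CA. For Sha the levels were 0.361, 0.422 and 0.566 CPM in O3, against 0.0907, 0.145 and 0.172 CPM in CA. Each Cvi library in CA held at most 1 count, so that WRKY72 was at least 23.7-fold higher in Cvi in O3, against the floor. That bound was 18.6-fold without Cvi in O3 replicate 2. In Sha the change was 1.63 ± 0.68 (adjusted p = 0.0363) on at most 15 counts per O3 library. The call was lost without any of the 3 Sha libraries in CA (adjusted p 0.0640 to 0.0937) or without Sha in O3 replicate 3 (0.130). DESeq2 (0.124) and upper-quartile factors (0.0532) did not call it either.

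WRKY31 (AT4G22070), a relative of WRKY6, had 1.39, 2.67 and 1.57 CPM in Cvi in O3, against 0.0314, 0.0387 and 0.0871 CPM in Cvi in CA. All 3 Cvi libraries in CA were at the floor, and WRKY31 was at least 16.5-fold higher in Cvi in O3, or 13.0-fold without Cvi in O3 replicate 2. Its Sha levels were 7.86, 0.724 and 13.7 CPM in O3, against 3.72, 0.654 and 1.58 CPM in CA, and its change was not called (1.92 ± 0.78, adjusted p = 0.0543). Without Sha in O3 replicate 2 it was called (2.43, adjusted p = 4.54e-05), as it was without Sha in CA replicate 1 (2.71, 0.0146). WRKY36 (AT1G69810) had 2.33, 2.63 and 2.82 CPM in Cvi in O3, against 0.2196, 0.232 and 0.131 CPM in Cvi in CA. The levels in Sha were 1.73, 2.41 and 1.85 CPM in O3, against 1.27, 0.727 and 0.721 CPM in CA. The change was 3.68 ± 0.42 (adjusted p = 2.94e-22) in Cvi and 1.22 ± 0.32 (adjusted p = 0.00154) in Sha. WRKY47 rose by 0.94 ± 0.26 in Cvi and 1.93 ± 0.26 in Sha (adjusted p = 0.00308 and 3.51e-10). WRKY9 was called in Sha only (1.27 ± 0.53, adjusted p = 0.0421) on levels under 1 CPM. That call was lost without Sha in CA replicate 1 or 2 or Sha in O3 replicate 2 or 3 (adjusted p 0.0567 to 0.170). DESeq2 (0.290), the quasi-likelihood test (0.0942) and upper-quartile factors (0.0649) did not call it either. The Cvi estimate for WRKY9 was 1.41 ± 0.79 (adjusted p = 0.0994), with CA at the floor, and the difference of 0.14 ± 0.95 was not called. WRKY42, not called, had an adjusted p of 0.200 in Sha, and 0.0140 without Sha in O3 replicate 2. WRKY61 was not called in either response, and in Sha its adjusted p of 0.0817 became 0.0333 without Sha in CA replicate 3.

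In group IIc 7 of 10 members rose in both accessions (15.2% of all genes). The group median was 4.69 in Cvi and 3.34 in Sha. WRKY75 (AT5G13080), a regulator of phosphate responses and senescence, had the largest response of the family in Cvi. It was measured at 74.3, 87.4 and 86.3 CPM in Cvi in O3, against 0.126, 0 and 0.174 CPM in Cvi in CA. The Sha levels were 81.6, 27.6 and 132 CPM in O3, against 3.63, 0.654 and 3.85 CPM in CA. The log2 fold change was 9.62 ± 0.76 (adjusted p = 2.16e-27) in Cvi, where no CA library held more than 4 counts, and 4.88 ± 0.58 (adjusted p = 9.88e-12) in Sha, where replicate 2 was the lowest in both treatments. WRKY48 (AT5G49520), a repressor of basal defence, had 146, 192 and 147 CPM in Cvi in O3, against 2.13, 1.97 and 2.44 CPM in Cvi in CA. Sha libraries showed 102, 62.4 and 105 CPM in O3, against 3.99, 3.63 and 3.02 CPM in CA. It rose by 6.21 ± 0.24 (adjusted p = 2.47e-100) in Cvi and 4.68 ± 0.24 (adjusted p = 9.89e-62) in Sha.

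WRKY45 (AT3G01970), a relative of WRKY75 with a role in phosphate uptake, had 77.9, 57.1 and 85.04 CPM in Cvi in O3, against 1.54, 1.47 and 1.52 CPM in Cvi in CA. The corresponding Sha levels were 28.4, 14.2 and 34.02 CPM in O3, against 3.35, 1.45 and 3.401 CPM in CA. It rose by 5.60 ± 0.34 (adjusted p = 5.09e-43) in Cvi and 3.21 ± 0.34 (adjusted p = 1.37e-16) in Sha. The other risers of this group were WRKY28, an activator of salicylic acid synthesis (4.85 ± 0.48 in Cvi and 4.50 ± 0.52 in Sha), WRKY8 (4.77 ± 0.41 and 3.47 ± 0.41), WRKY51 (4.60 ± 0.28 and 3.63 ± 0.26) and WRKY50 (2.21 ± 0.27 and 1.36 ± 0.25). WRKY57 (AT1G69310), known from drought tolerance and from the restraint of senescence, had 6.45, 6.24 and 8.53 CPM in Cvi in O3, against 11.6, 14.2 and 10.9 CPM in Cvi in CA, without overlap. The Sha libraries had 9.303, 12.2 and 9.88 CPM in O3, against 9.07, 12.3 and 7.73 CPM in CA, with overlap. It was called lower in Cvi (-0.79 ± 0.22, adjusted p = 0.00487) and not called in Sha (0.12 ± 0.22, adjusted p = 0.825). DESeq2 did not call WRKY57 in Cvi (0.125), and the difference between the responses was not called (-0.91 ± 0.31, adjusted p = 0.0710). WRKY13 was not called in either accession, and in Cvi its adjusted p of 0.115 became 0.0498 without Cvi in O3 replicate 1.

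**Figure D2:**
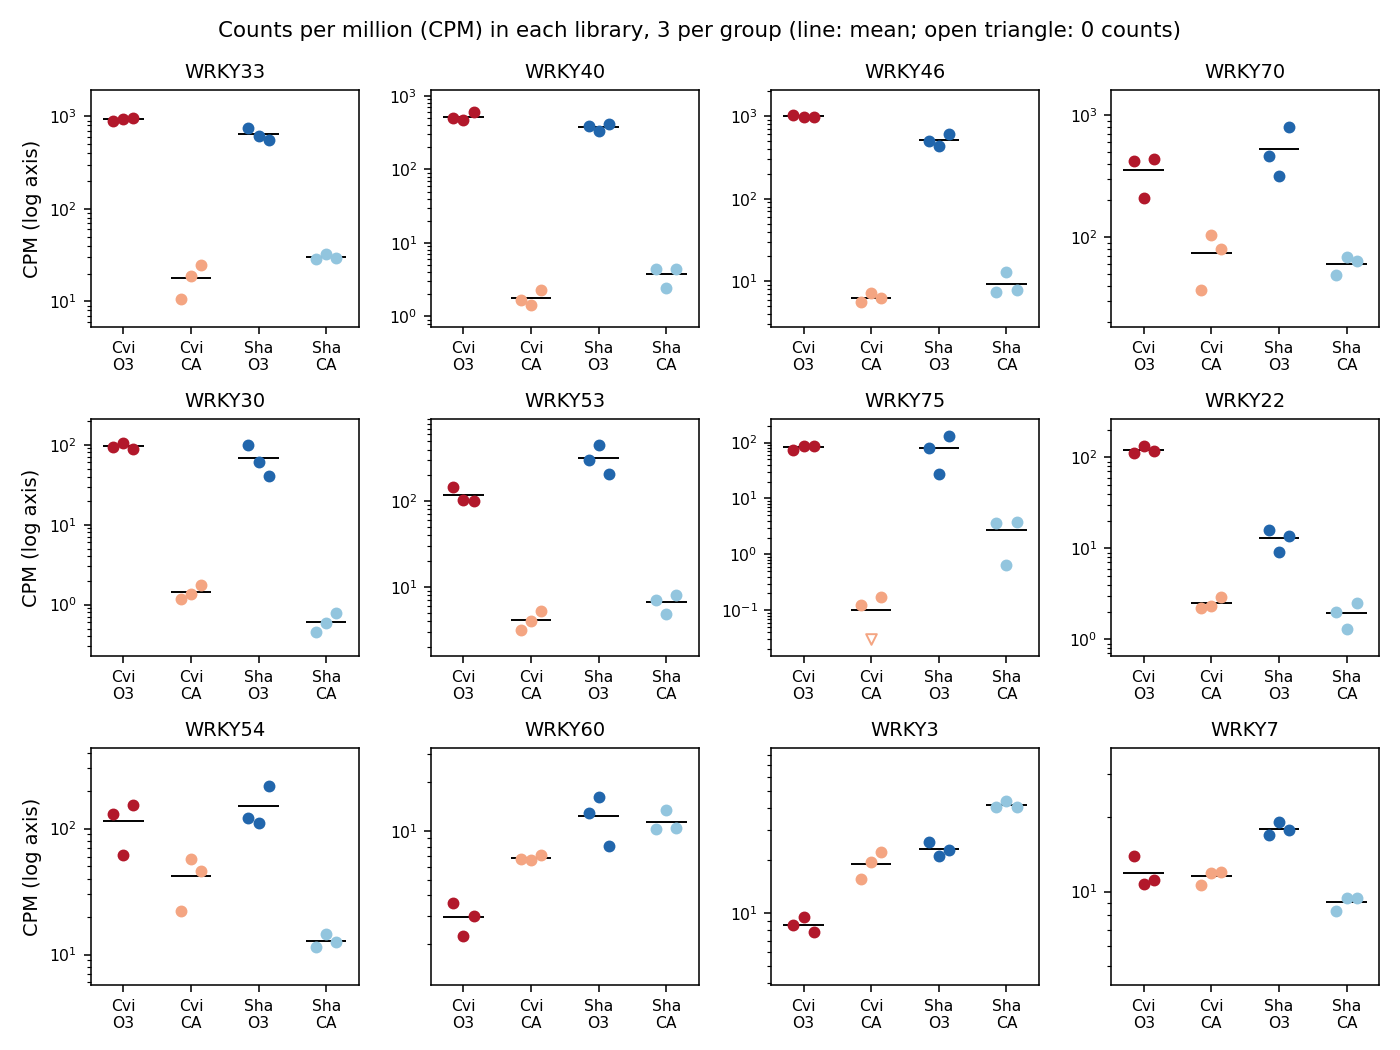
CPM of 12 members in each library (y axis, log scale with its own range in each panel), with O3 left of CA for Cvi and for Sha, 3 points per group and a line at the mean; the open triangle marks a library with 0 counts. WRKY33, WRKY40, WRKY46, WRKY30 and WRKY53 separate O3 from CA widely in both accessions, WRKY3 lies lower in O3 in both, and WRKY60 does so in Cvi.

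Group IId members bind calmodulin, and several are negative regulators of basal resistance. In Cvi 5 of 7 were higher (24.3% of all genes) and in Sha 6 of 7 (17.9%). WRKY15 (AT2G23320), which acts in mitochondrial stress signalling, had 264, 289 and 287 CPM in Cvi in O3, against 11.7, 7.93 and 11.9 CPM in Cvi in CA. For Sha the levels were 180.4, 152 and 154 CPM in O3, against 17.3, 18.6 and 18.2 CPM in CA. It rose by 4.74 ± 0.18 (adjusted p = 8.04e-105) in Cvi and 3.17 ± 0.18 (adjusted p = 1.10e-50) in Sha. WRKY11 (AT4G31550) had 173, 233 and 203 CPM in Cvi in O3, against 21.1, 27.9 and 29.9 CPM in Cvi in CA, and 113, 84.8 and 85.98 CPM in Sha in O3, against 16.4, 20.4 and 21.7 CPM in Sha in CA. It rose by 2.95 ± 0.20 (adjusted p = 1.26e-36) in Cvi and 2.27 ± 0.20 (adjusted p = 1.84e-21) in Sha. Its close copy WRKY17 (AT2G24570) had 35.4, 39.1 and 29.4 CPM in Cvi in O3, against 17.97, 15.8 and 14.99 CPM in Cvi in CA, and 23.3, 29.01 and 24.8 CPM in Sha in O3, against 12.9, 8.79 and 13.7 CPM in Sha in CA. It rose far less, by 1.09 ± 0.19 (adjusted p = 3.90e-06) in Cvi and 1.11 ± 0.20 (adjusted p = 6.28e-06) in Sha. Its promoter holds 2 W-boxes in the short window, against 1 in that of WRKY11, and a link of boxes to response was not tested.

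WRKY7 (AT4G24240), another member of IId, had 14, 10.7 and 11.1 CPM in Cvi in O3, against 10.7, 11.9 and 12.02 CPM in Cvi in CA. Its Sha levels were 16.9, 19.1 and 17.7 CPM in O3, against 8.34, 9.45 and 9.41 CPM in CA. It was called higher in Sha (0.98 ± 0.16, adjusted p = 5.69e-06) and not in Cvi (0.05 ± 0.16, adjusted p = 0.929), where O3 and CA overlapped. WRKY39 rose by 2.09 ± 0.21 in Cvi and 1.60 ± 0.22 in Sha and WRKY21 by 1.09 ± 0.17 and 0.73 ± 0.17. WRKY74 lay under 1 CPM in every library and was not called.

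In group IIe 3 of 7 members were higher (24.3% of all genes) and 1 lower (23.2%) in Cvi. In Sha 2 were higher (17.9%). WRKY22 (AT4G01250) and WRKY29 (AT4G23550) are known from the MAP kinase pathway that follows the sensing of bacterial flagellin. WRKY22 had 112, 132 and 118 CPM in Cvi in O3, against 2.196, 2.32 and 2.92 CPM in Cvi in CA. The levels in Sha were 15.9, 9.05 and 13.7 CPM in O3, against 1.995, 1.31 and 2.51 CPM in CA. It rose by 5.61 ± 0.24 (adjusted p = 5.55e-88) in Cvi and 2.68 ± 0.26 (adjusted p = 4.03e-20) in Sha, and its level in O3 in Cvi was far above that in Sha. WRKY29 had 19.7, 14.9 and 15.2 CPM in Cvi in O3, against 1.88, 2.17 and 2.05 CPM in Cvi in CA, and 5.99, 3.86 and 9.69 CPM in Sha in O3, against 2.27, 1.09 and 1.72 CPM in Sha in CA. It rose by 3.02 ± 0.31 (adjusted p = 1.97e-17) in Cvi and 1.97 ± 0.34 (adjusted p = 4.80e-07) in Sha.

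WRKY27 (AT5G52830), known from symptom development in bacterial wilt, had 2.33, 1.19 and 1.08 CPM in Cvi in O3, against 6.43, 3.48 and 5.53 CPM in Cvi in CA. Sha libraries showed 3.53, 3.86 and 3.13 CPM in O3, against 5.35, 3.42 and 3.64 CPM in CA. It was lower in O3 in Cvi (-1.76 ± 0.33, adjusted p = 3.40e-06) and not called in Sha (-0.23 ± 0.33, adjusted p = 0.714). WRKY69 was called in Cvi (0.65 ± 0.24, adjusted p = 0.0379), but not when any 1 of 4 libraries was left out. The adjusted p was 0.192 without Cvi in CA replicate 1, and 0.0545 to 0.0957 without Cvi in O3 replicate 1, 2 or 3. DESeq2 (0.138), the quasi-likelihood test (0.0542), total counts alone (0.0855) and upper-quartile factors (0.159) did not call it either. WRKY65 was not called in Cvi (adjusted p = 0.0670) or Sha (0.0879). In Cvi it was called without Cvi in O3 replicate 3 (0.00638) or Cvi in CA replicate 3 (0.0265), and in Sha without Cvi in O3 replicate 3 (0.0494). WRKY14 had an adjusted p of 0.0988 in Sha, and 0.0296 without Sha in O3 replicate 3. The members called in neither accession were WRKY1, WRKY13, WRKY14, WRKY23, WRKY32, WRKY35, WRKY42, WRKY44, WRKY61, WRKY65 and WRKY74. Among them WRKY44 acts in trichome and seed coat development and WRKY23 in root development.

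The next question was whether the accessions responded differently. The log2 response in Sha was subtracted from that in Cvi as an interaction term of the same model, and this difference was called for 15 members (8.93% of all genes). In 11 of them the response was larger in Cvi (6.33% of all genes) and in 4 it was smaller (2.60%). Against a log2 value of 1.2 only WRKY22, WRKY72 and WRKY75 were called, all with the larger response in Cvi (1.63% of all genes, against 0.231% with the smaller). The 11 were WRKY6, WRKY15, WRKY22, WRKY33, WRKY36, WRKY40, WRKY45, WRKY46, WRKY48, WRKY72 and WRKY75. The 4 were WRKY7, WRKY27, WRKY54 and WRKY60.

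Among the larger responses in Cvi, the difference was 2.92 ± 0.36 (adjusted p = 3.19e-12) for WRKY22, 2.39 ± 0.48 (adjusted p = 8.26e-05) for WRKY45, 1.57 ± 0.26 (adjusted p = 1.88e-06) for WRKY15 and 2.46 ± 0.53 (adjusted p = 0.000115) for WRKY36. It was 1.56 ± 0.34 (adjusted p = 0.000699) for WRKY40, 1.54 ± 0.34 (adjusted p = 0.000955) for WRKY48 and 1.52 ± 0.32 (adjusted p = 0.000458) for WRKY46. WRKY33 differed by 1.29 ± 0.36 (adjusted p = 0.0156), which was not called with scaling by total counts alone (0.0517). For WRKY75 the difference was 4.74 ± 0.96 (adjusted p = 2.80e-05) and for WRKY72 4.84 ± 1.27 (adjusted p = 0.000274), both resting on near-empty Cvi libraries in CA, so that their sizes are poorly fixed. WRKY6 differed by 1.13 ± 0.35 (adjusted p = 0.0402), a call that did not hold without Cvi in CA replicate 1 or 2, Cvi in O3 replicate 2, Sha in CA replicate 1 or 3, or Sha in O3 replicate 2 (adjusted p 0.0643 to 0.147), nor with DESeq2 (0.0712), the quasi-likelihood test (0.0718) or total counts alone (0.0751).

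Among the smaller responses, WRKY54 differed by -2.09 ± 0.54 (adjusted p = 0.00468) and WRKY7 by -0.93 ± 0.23 (adjusted p = 0.00651). WRKY60 differed by -1.34 ± 0.37 (adjusted p = 0.0128), but not at this threshold without Cvi in O3 replicate 2 (adjusted p = 0.0606) or Sha in CA replicate 3 (0.0657). WRKY27 differed by -1.53 ± 0.46 (adjusted p = 0.0232), and the call was lost without Cvi in CA replicate 1 or 3, Cvi in O3 replicate 2 or 3, or Sha in CA replicate 2 or 3 (0.0609 to 0.101). DESeq2 did not call WRKY7 (0.0574), WRKY27 (0.120) or WRKY60 (0.111), nor the quasi-likelihood test WRKY27 (0.0577). In the other direction, 6 members outside the call passed when 1 library was left out. These were WRKY8 (0.00873 without Sha in O3 replicate 3), WRKY29 (0.00641 without the same library), WRKY47 (0.00248 without it), WRKY50 (0.0318 without Sha in O3 replicate 2), WRKY57 (0.0382 without Cvi in O3 replicate 3 and 0.00983 without Sha in CA replicate 2) and WRKY31. For WRKY31 the value was 0.0240 without Sha in O3 replicate 3, 0.0483 without Sha in O3 replicate 2 and 0.0415 without Sha in CA replicate 2. The response in Cvi was the smaller for WRKY47 and WRKY57 and the larger for the other 4.

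**Figure D3:**
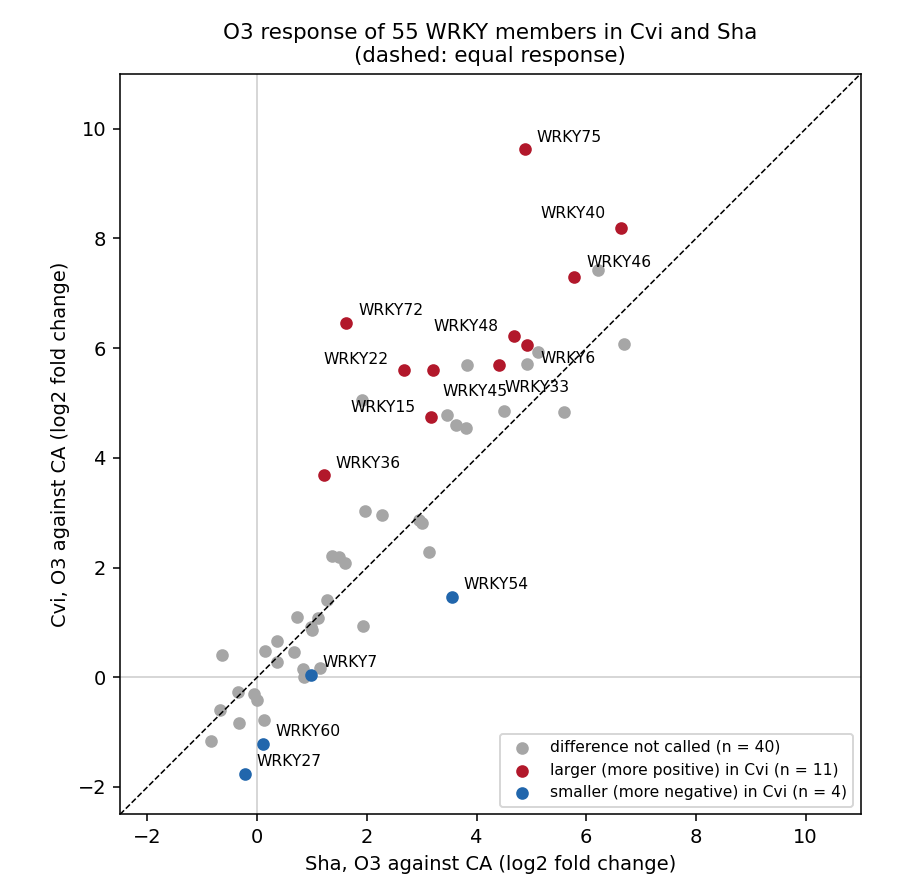
Log2 fold change of O3 against CA in Cvi (y axis) and in Sha (x axis) for the 55 members, with the line of equal response dashed. The 11 members whose response was called larger in Cvi lie above the line, with WRKY75 at 9.62 in Cvi and 4.88 in Sha, and the 4 called smaller lie below it.

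The last question was at which treatment the levels of the accessions stood apart. In CA 3 members were higher in Cvi than in Sha (8.84% of all genes) and 12 were lower (9.28%). With scaling by total counts alone the split in CA was 2 higher (7.24% of all genes) and 19 lower (11.7%). In O3 11 members were higher in Cvi than in Sha (18.5% of all genes) and 16 were lower (13.9%), or 9 (13.0%) and 22 (23.6%) with total counts alone. Against a log2 value of 1.2, 1 member was higher (3.37%) and 4 were lower (3.47%) in CA, and 4 were higher (6.21%) and 3 lower (3.41%) in O3. That scaling moved the median log2 difference of all genes to -0.08 in CA and -0.18 in O3. Both comparisons between accessions can carry losses of reads that differ from the Col-0 transcripts used as the reference.

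The difference in response is the Cvi against Sha difference in O3 less that in CA. Selection for a larger response in Cvi therefore fixes that each member lies lower in CA, higher in O3, or both. The sets below only part called from uncalled contrasts. WRKY33 stood between, at -0.75 ± 0.26 in CA and 0.54 ± 0.25 in O3, neither called in the main fit. In CA 5 of the 11 were lower in Cvi (WRKY6, WRKY15, WRKY36, WRKY40 and WRKY75), and in O3 6 were higher in Cvi (WRKY15, WRKY22, WRKY45, WRKY46, WRKY48 and WRKY72). WRKY15 was in both sets and WRKY33 in neither. With the replicate number as a block, WRKY33 (adjusted p = 0.0384) and WRKY45 (0.0293) were also lower in Cvi in CA. WRKY33 then joined the first set and WRKY45 was in both. The block covers all 12 libraries, also groups whose same-numbered libraries did not correlate. Within the first set WRKY75 had the largest difference in CA. Its level in CA differed by -4.70 ± 0.77 (adjusted p = 1.77e-08) between Cvi and Sha, while in O3 the libraries of the accessions overlapped (0.04 ± 0.56, adjusted p = 1.00). WRKY22 had the largest difference in O3 within the second set, at 3.22 ± 0.22 (adjusted p = 6.34e-36), with 0.30 ± 0.28 in CA, not called. WRKY40 was lower in CA in Cvi (-1.08 ± 0.27, adjusted p = 0.00224) and not called in O3 (0.47 ± 0.21, adjusted p = 0.150). WRKY46 was not called in CA (-0.56 ± 0.24, adjusted p = 0.154) and higher in O3 (0.96 ± 0.22, adjusted p = 0.000936). Of the smaller responses in Cvi, WRKY54 was higher in Cvi in CA (1.71 ± 0.39, adjusted p = 0.000513), and WRKY7, WRKY27 and WRKY60 were lower in Cvi in O3 (-0.59 ± 0.16, -1.20 ± 0.34 and -2.07 ± 0.27).

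**Figure D4:**
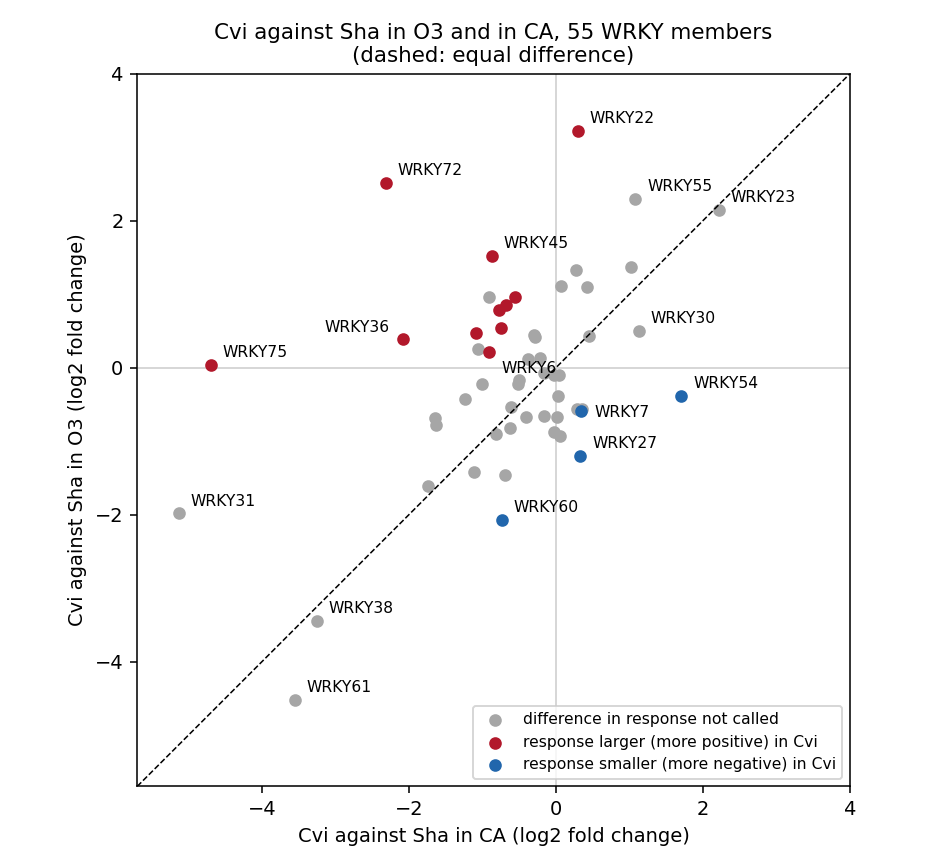
Log2 fold change of Cvi against Sha in O3 (y axis) and in CA (x axis) for the 55 members, coloured by the difference in response; the dashed line marks an equal difference in both treatments. WRKY75 lies at -4.70 in CA and 0.04 in O3, WRKY22 at 0.30 in CA and 3.22 in O3, and WRKY38 and WRKY61 lie far below 0 on both axes.

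Of the members with the largest differences in CA, WRKY23 (AT2G47260) was higher in Cvi in both treatments, without a called response. It had 7.696, 17.7 and 10.1 CPM in Cvi in O3, against 7.31, 12.3 and 9.59 CPM in Cvi in CA. The corresponding Sha levels were 3.101, 1.93 and 2.94 CPM in O3, against 2.63, 2.18 and 1.58 CPM in CA. Between Cvi and Sha it differed by 2.22 ± 0.35 (adjusted p = 1.04e-07) in CA and 2.15 ± 0.34 (adjusted p = 8.92e-08) in O3. WRKY30 was called higher in Cvi in CA (1.12 ± 0.40, adjusted p = 0.0432), but the call was lost without any 1 of 8 libraries (Cvi in CA replicates 2 and 3, Sha in CA replicates 1, 2 and 3, and Cvi in O3 replicates 1, 2 and 3, adjusted p 0.0505 to 0.165). The quasi-likelihood test and DESeq2 also did not call it.

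The largest negative differences in CA were those of WRKY31 (-5.13 ± 1.06), WRKY75, WRKY61 (-3.56 ± 1.12) and WRKY38 (-3.26 ± 0.57). WRKY31 was at the floor in Cvi in CA, and at least 17.5-fold lower there than in Sha, or 9.83-fold without Sha in CA replicate 1. WRKY61 (AT1G18860) had 0.0496, 0 and 0.0348 CPM in Cvi in O3 and 0.721, 0.905 and 0.754 CPM in Sha in O3. In CA it had 0, 0 and 0.0871 CPM in Cvi and 0.453, 0.0727 and 0.481 CPM in Sha. Every Cvi library was at the floor, so that it was at least 5.92-fold lower in Cvi than in Sha in O3, and at least 2.96-fold lower in CA as a mean, where Sha replicate 2 was itself at the floor and the groups overlapped. The bound in O3 was 5.33-fold without Cvi in O3 replicate 3, and that in CA 2.32-fold without Sha in CA replicate 3. Between Cvi and Sha WRKY38 differed by -3.26 ± 0.57 (adjusted p = 4.36e-08) in CA and -3.45 ± 0.39 (adjusted p = 2.16e-14) in O3. The jasmonic acid repressors WRKY50 and WRKY51 were lower in Cvi in CA (-1.63 ± 0.29 and -1.65 ± 0.30) as was WRKY3 (-1.11 ± 0.17), which was also lower in O3 (-1.43 ± 0.17).

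Several of these calls turned on a library or on the replicate number. In CA same-numbered libraries of the accessions correlated, although pairing is not established. With the number as a block WRKY8 (adjusted p = 0.0452), WRKY18 (0.00502) and WRKY60 (0.0443), beside WRKY33 and WRKY45, were also called lower in Cvi. Without Sha in O3 replicate 2, a library outside the contrast that enters the same model, 4 members were called higher and 19 lower in CA. Of all 28459 genes then tested, 2946 were higher and 3044 lower. Calls in CA were lost for WRKY2 (adjusted p 0.0609 to 0.185 without Cvi in CA replicate 1, 2 or 3 or Sha in CA replicate 2), WRKY6 (0.0525 to 0.0885 without Cvi in CA replicate 1 or 2 or Sha in CA replicate 1) and WRKY15 (0.0576 without Cvi in CA replicate 2). In O3 the calls of WRKY1 (0.0521) and WRKY47 (0.0566) were lost without Sha in O3 replicate 2, those of WRKY27 (0.0531) without Cvi in O3 replicate 3, and that of WRKY7 without Cvi in O3 replicate 2 or 3 (0.0721 and 0.0666). WRKY18 was not called in O3 without Cvi in O3 replicate 1 or 2 or Sha in O3 replicate 3 (0.115 to 0.124), nor WRKY28 without Cvi in O3 replicate 2 or Sha in O3 replicate 1 (0.141 and 0.0633). WRKY50 lost the call without Cvi in O3 replicate 1 or 3 or Sha in O3 replicate 2 (0.0561 to 0.0885), WRKY51 without Cvi in O3 replicate 2 or 3 or Sha in O3 replicate 1 or 3 (0.0642 to 0.136), and WRKY31 without any Cvi library in O3, Cvi in CA replicate 2 or 3 or Sha in O3 replicate 1 or 3 (just over 0.05 to 0.254).

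Other members gained a call when a library was left out. In CA these were WRKY8, WRKY18, WRKY33, WRKY45, WRKY48, WRKY60, WRKY63 and WRKY9, all lower in Cvi, and WRKY28, higher in Cvi. WRKY8 passed without Sha in CA replicate 2 or Sha in O3 replicate 2 or 3 (0.0116 to 0.0204), WRKY18 without Cvi in CA replicate 3, Sha in CA replicate 2 or Sha in O3 replicate 2 or 3 (0.0223 to 0.0340), and WRKY33 without Cvi in CA replicate 3 or any Sha library in O3 (0.00398 to 0.0403). WRKY45 passed without Sha in CA replicate 2 or Sha in O3 replicate 2 or 3 (0.0166 to 0.0480), WRKY60 without Sha in O3 replicate 2 or 3 (0.0210 and 0.00990), and WRKY63 without Cvi in CA replicate 3, Sha in CA replicate 1 or Sha in O3 replicate 2 (0.0190 to 0.0487). WRKY9 passed without Sha in CA replicate 2 (0.0398), and WRKY28 (0.0410) and WRKY48 (0.0456) without Sha in O3 replicate 2. In O3 WRKY30 became higher in Cvi without Sha in O3 replicate 1 (0.0147). WRKY13 (0.0377 without Sha in O3 replicate 3), WRKY42 (0.00933 without Sha in O3 replicate 2) and WRKY57 (0.0387 without Cvi in O3 replicate 3 and 0.0461 without Sha in O3 replicate 1) became lower in Cvi.

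The partners and described targets of WRKY proteins were read from the same model, from lists drawn up from known roles but with earlier results of these data known, so their counts are no independent evidence. Of 8 genes of the MAP kinase cascade, all 8 were higher in O3 in both accessions. Over all genes, 24.3% were higher in Cvi and 17.9% in Sha. The median log2 fold change of the 8 was 2.20 in Cvi and 1.68 in Sha. MKK4, a kinase upstream of MPK3 and MPK6, had 156, 134 and 130.0 CPM in Cvi in O3, against 12.9, 14.9 and 13.5 CPM in Cvi in CA. The Sha libraries had 84.95, 116 and 83.7 CPM in O3, against 13.97, 20.1 and 13.8 CPM in CA. It rose by 3.34 ± 0.19 in Cvi and 2.57 ± 0.20 in Sha. MEKK1, at the top of the cascade, had 158, 154 and 151 CPM in Cvi in O3, against 19.9, 21.6 and 21.8 CPM in Cvi in CA, and 76.8, 79.5 and 83.4 CPM in Sha in O3, against 22.04, 28.1 and 21.8 CPM in Sha in CA. It rose by 2.87 ± 0.15 in Cvi and 1.74 ± 0.15 in Sha, and its response was larger in Cvi by 1.13 ± 0.21 (adjusted p = 0.000139).

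Of 31 VQ genes tested, 21 were higher in Cvi (24.3% of all genes) and 20 in Sha (17.9%). None was lower in Cvi (23.2%) or Sha (16.6%), and the medians were 3.21 in Cvi and 1.67 in Sha. The largest changes were those of AT4G37710 and AT2G22880. AT4G37710 had 42, 56.97 and 46.1 CPM in Cvi in O3, against 0.0627, 0 and 0 CPM in Cvi in CA. For Sha the levels were 1.15, 0 and 1.13 CPM in O3, against 0, 0 and 0.0343 CPM in CA. It was at least 426-fold higher in O3 in Cvi, against the floor, or 388-fold without Cvi in O3 replicate 2. In Sha the mean was at least 3.85-fold higher in O3, but replicate 2 in O3 was at 0 and the groups overlapped. The bound was 5.78-fold without that library and 2.86-fold without Sha in O3 replicate 1. AT2G22880 had 72.1, 69.7 and 66.97 CPM in Cvi in O3, against 0.126, 0.155 and 0.653 CPM in Cvi in CA, and 22.6, 18.8 and 17.3 CPM in Sha in O3, against 0.0907, 0.436 and 0.172 CPM in Sha in CA. It rose by 7.88 ± 0.35 in Cvi and 6.41 ± 0.46 in Sha.

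Of 16 tested genes described as targets of WRKY proteins, 13 were higher in Cvi (24.3% of all genes) and 13 in Sha (17.9%). In Cvi 1 (PHO1, a phosphate exporter) was lower (23.2% of all genes), and none was lower in Sha (16.6%). The medians were 4.61 in Cvi and 2.90 in Sha, and for 9 the response was called larger in Cvi (6.33% of all genes). CYP71A12, an enzyme of indolic defence compounds, had 509, 367 and 450.1 CPM in Cvi in O3, against 1.51, 0.773 and 1.18 CPM in Cvi in CA, and 204, 33.6 and 287 CPM in Sha in O3, against 5.44, 1.89 and 3.02 CPM in Sha in CA. It rose by 8.57 ± 0.57 in Cvi and 5.67 ± 0.57 in Sha, and here too Sha in O3 replicate 2 was the lowest. RRTF1, a redox-responsive transcription factor, had 41.9, 74.01 and 53.98 CPM in Cvi in O3, against 0, 0 and 0.131 CPM in Cvi in CA, and 2.24, 0.603 and 1.697 CPM in Sha in O3, against 0, 0.0727 and 0 CPM in Sha in CA. It was at least 498-fold higher in O3 in Cvi and at least 7.65-fold higher in Sha. These bounds were 422-fold without Cvi in O3 replicate 2 and 5.82-fold without Sha in O3 replicate 1.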

How the data were processed

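Rosette RNA of Sha and Cvi was sequenced in 12 libraries (4 groups, 3 replicates each). The authors deposited estimated counts per locus: reads were trimmed with Trimmomatic 0.33, assigned to the Col-0-based AtRTD2 transcripts with kallisto and averaged over repeated estimates, with no normalisation. The files thus hold expected counts (69.46% of values not whole), rounded here. A further 6 columns were not used. Loci without a count (5663) were removed.

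Differential expression used edgeR 4.0.16 in R 4.3.3: TMM scaling, a generalised linear model of the 4 groups over 12 libraries and the likelihood-ratio test against a 1.2-fold change. The study's text prints the threshold of 1.2 as a log2 value, but its supplementary table lists smaller changes beside columns of this test, so it was read as a fold, and the log2 value was an alternative that leaves fewer calls. The other alternatives were the quasi-likelihood test, DESeq2 1.42.0, RLE, upper-quartile and total-count scaling, filterByExpr, no minimum change, unrounded counts, a replicate block, fewer groups and each library left out. Adjusted p-values come from edgeR over all genes. Standard errors come from the fitted information, CPM from TMM-adjusted library sizes. A fold against a group at the floor (at most 3 counts per library) is a lower bound against 3 counts per library.

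The family and the lists, although drawn up by locus and known role, were chosen with earlier results of these data known. Library values are given for the 8 largest increases and 6 largest decreases in each accession (called, mean of at least 1 CPM), members called for the difference in response, the 4 largest differences each way between accessions in CA, 20 members fixed by name, and the 2 largest changes in each partner list. Replicates are separate pools of plants. Over 19107 genes, deviations from the group means correlated between same-numbered Sha libraries in O3 and CA (0.358, 0.575 and 0.387). They also did so between Cvi and Sha in CA (0.235, 0.391 and 0.203), but not in the other comparisons. Some Sha libraries of different number correlated as well (0.244 and 0.226). What a number marks is not given in the sources used here, so pairing is not established, and the main fit has no block. Loci were matched to RefSeq (TAIR10.1) for names and positions, 33437 in all, and transcripts were compared with blastn 2.17.0. The fit of the Sha response was also run on simulated counts, in which a small set of genes was changed in Sha in O3 only. In the data 34.5% of genes were called in Sha, so that run cannot show the error rate here.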

Additional observations from a re-analysis of the deposited data

Results flagged for a closer look

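The O3 response differed between the accessions, by the interaction term of the edgeR model (Cvi minus Sha, log2), for 15 members. The difference was positive for WRKY6 (1.13), WRKY15 (1.57), WRKY22 (2.92), WRKY33 (1.29), WRKY36 (2.46), WRKY40 (1.56), WRKY45 (2.39), WRKY46 (1.52), WRKY48 (1.54), WRKY72 (4.84) and WRKY75 (4.74). It was negative for WRKY7 (-0.93), WRKY27 (-1.53), WRKY54 (-2.09) and WRKY60 (-1.34). With 3 libraries per group, no library was tested as an outlier.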

How the results depend on the processing

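In each accession the count of members higher in O3 stayed within 1.5 times of that reported, under every alternative run, and no called member changed sign. Requiring a log2 fold change of at least 1.2 gave 30 members higher and 0 lower in Cvi, and 0 lower in Sha. The same setting gave 3 members for the difference in response (3 larger and 0 smaller), 5 for Cvi against Sha in CA (1 higher and 4 lower) and 7 in O3 (4 higher and 3 lower). With no minimum change, and likewise with upper-quartile factors, 2 members were lower in Sha, beside 5555 and 5489 of 28549 genes. DESeq2 called 1 smaller response in Cvi, and in O3 17 members between the accessions, 7 of them lower. Over all genes it called 323 smaller responses, and 3841 genes higher and 2411 lower in O3 between the accessions. Total counts alone gave 19 members lower in Cvi in CA, and moved the median of all genes to -0.14 for the difference and -0.18 for Cvi against Sha in O3.

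Leaving out each library in turn gave 35 to 37 members higher and 5 to 6 lower in Cvi, 40 to 42 in all, and 35 to 38 higher and 1 lower in Sha, 36 to 39 in all. Over the 28256 to 28502 genes then tested, 6334 to 7189 were higher and 5932 to 7436 lower in Cvi. In Sha 4696 to 5479 were higher and 3842 to 5047 lower. For the difference, leaving out a library gave 12 to 19 members, 10 to 14 with a larger and 2 to 5 with a smaller response in Cvi. Of all genes, 1382 to 1872 had a larger and 499 to 893 a smaller response there. Between the accessions it gave 11 to 23 members in CA (2 to 4 higher and 9 to 19 lower) and 22 to 27 in O3 (10 to 11 higher and 12 to 16 lower). Of all genes, 1823 to 2946 were higher and 2150 to 3044 lower in CA, and 4405 to 5518 and 3261 to 4323 in O3. The 2 smaller responses were left without Sha in CA replicate 3, or without Cvi in O3 replicate 2, and the 23 and 19 in CA came without Sha in O3 replicate 2.

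The replicate block gave 36 higher and 5 lower in Cvi, 37 higher and 1 lower in Sha, 14 larger and 5 smaller responses in Cvi, 3 higher and 17 lower for Cvi against Sha in CA, and 12 higher and 15 lower in O3. Over all 28549 genes the block gave 2043 larger and 930 smaller responses, against 1806 and 742 without it, so calls rose there too. In Cvi 7025 genes were higher and 6842 lower, and in Sha 5289 and 5022. Between accessions 2831 were higher and 2890 lower in CA, and 5753 and 4150 in O3. Beside the calls named above the block changed those of WRKY8, WRKY31, WRKY51 and WRKY57 for the difference in response. It also changed those of WRKY31 and WRKY62 between accessions in O3, where same-numbered libraries did not correlate. Members under about 1 CPM in every library (WRKY9, WRKY35, WRKY61 and WRKY74), and WRKY72 in Sha, are limited by depth.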
